A study of Mus musculus with 18 samples.

Results

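Type I interferon-stimulated antiviral genes are described here as a set of 37 genes, covering signalling factors, RNA sensors, virus-restricting proteins and chemokines. They were chosen by name with earlier results of these data known, so values of the set are a description and not an independent test. All 37 had a row among the 24537 gene symbols of the count table, and all 37 passed the filter on low counts that left 11651 genes for testing. The libraries came from mouse naive CD8+ T cells given a complex of guide RNA and CRISPR nuclease, then activated through CD3 and CD28, then cultured overnight with or without the bile acid lithocholic acid (LCA). The question was how LCA acts on cells with and without Nur77, the orphan nuclear receptor encoded by Nr4a1.

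Each of the 6 groups had 3 libraries. Cells given the Nur77 guide kit (labelled Nur77-KO, here KO) were cultured without LCA (KO control), with 10 µM LCA (KO LCA10) or with 50 µM LCA (KO LCA50). Cells given a scrambled guide (labelled WT) were cultured in the same 3 ways (WT control, WT LCA10 and WT LCA50). Every group was therefore edited or mock-edited and activated before the overnight culture, and the KO groups are populations treated with a guide rather than cells from a deleted strain or a single clone. Whether the 3 libraries of a group came from different mice or different cultures is not stated, and every p-value therefore rests on library-to-library spread that could be technical.

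Type I interferons are antiviral cytokines that bind a receptor made of IFNAR1 and IFNAR2 on nearly all cells and activate the kinases JAK1 and TYK2. Among their targets is STAT2, which acts with IRF9 in a transcription factor complex that binds interferon-stimulated response elements in the promoters of antiviral genes. IRF7, itself induced in this way, drives further interferon transcription, while USP18 damps the receptor. In T cells the same programme accompanies viral infection and can also run at a low tonic level without it.

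The response element is written here as GAAANNGAAA, or TTTCNNTTTC when read on the other strand, and was sought on both strands of the 300 bases from 250 before to 50 after each annotated start, with overlapping matches counted separately. RefSeq promoters (GRCm38.p6) were at hand for 29 of the 37 genes, and 13 of these 29 (44.8%) held at least 1 match, against 3.99% of the 27025 gene symbols with a promoter and 3.44% of the 32851 promoters of the whole collection. The promoters below show the range: matches are in capitals, and the genes were picked because their transcripts carry the results that follow. Isg15 (minus strand, chr4:156200769-156201068) held 3 overlapping matches, Ifit1 (plus strand, chr19:34640639-34640938) held 2 and Trim30a (minus strand, chr7:104465144-104465443) held 1. Oasl1 (plus strand, chr5:114922990-114923289), Xaf1 (plus strand, chr11:72301379-72301678) and Lgals3bp (minus strand, chr11:118401910-118402209) held none, which says only that these letters were not in this window.
Isg15: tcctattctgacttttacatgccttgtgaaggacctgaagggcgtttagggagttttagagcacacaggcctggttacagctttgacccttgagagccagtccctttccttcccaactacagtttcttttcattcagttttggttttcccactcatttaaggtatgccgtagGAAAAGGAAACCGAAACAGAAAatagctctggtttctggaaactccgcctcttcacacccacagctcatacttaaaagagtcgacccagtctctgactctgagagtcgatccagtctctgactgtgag
Ifit1: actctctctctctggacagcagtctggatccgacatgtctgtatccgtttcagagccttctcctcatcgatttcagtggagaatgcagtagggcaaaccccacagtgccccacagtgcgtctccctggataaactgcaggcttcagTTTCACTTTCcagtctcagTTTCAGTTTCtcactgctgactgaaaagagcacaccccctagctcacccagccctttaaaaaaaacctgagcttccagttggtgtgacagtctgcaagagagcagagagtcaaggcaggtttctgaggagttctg
Trim30a: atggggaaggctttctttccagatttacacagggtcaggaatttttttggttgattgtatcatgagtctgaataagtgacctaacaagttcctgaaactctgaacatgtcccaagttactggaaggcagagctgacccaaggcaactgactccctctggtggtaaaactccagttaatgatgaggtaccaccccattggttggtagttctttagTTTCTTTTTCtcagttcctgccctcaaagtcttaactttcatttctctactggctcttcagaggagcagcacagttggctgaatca
Oasl1: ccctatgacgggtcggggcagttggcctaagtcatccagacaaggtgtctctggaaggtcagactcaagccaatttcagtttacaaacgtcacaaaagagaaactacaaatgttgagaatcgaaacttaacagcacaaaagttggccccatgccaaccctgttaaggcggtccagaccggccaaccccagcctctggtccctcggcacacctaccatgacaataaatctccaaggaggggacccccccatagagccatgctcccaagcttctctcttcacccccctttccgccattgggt
Xaf1: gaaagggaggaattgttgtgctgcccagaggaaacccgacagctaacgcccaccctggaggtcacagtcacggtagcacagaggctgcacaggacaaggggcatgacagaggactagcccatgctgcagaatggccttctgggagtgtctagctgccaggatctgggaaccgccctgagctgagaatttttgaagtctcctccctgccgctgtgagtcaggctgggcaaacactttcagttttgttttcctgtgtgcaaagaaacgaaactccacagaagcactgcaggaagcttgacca
Lgals3bp: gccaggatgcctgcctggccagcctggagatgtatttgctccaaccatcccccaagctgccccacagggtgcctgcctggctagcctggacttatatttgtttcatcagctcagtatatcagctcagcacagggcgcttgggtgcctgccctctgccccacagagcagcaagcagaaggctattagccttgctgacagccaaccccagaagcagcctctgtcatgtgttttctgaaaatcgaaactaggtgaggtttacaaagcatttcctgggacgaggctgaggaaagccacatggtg
The matches lay from close to the start site to more than 200 bases before it, as the plot of match positions shows. Genes without a promoter entry were Mx2, Parp14, Mx1, Usp18, Oas2, Ifi27l2a, Rtp4 and Parp9.

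**Figure D1:**
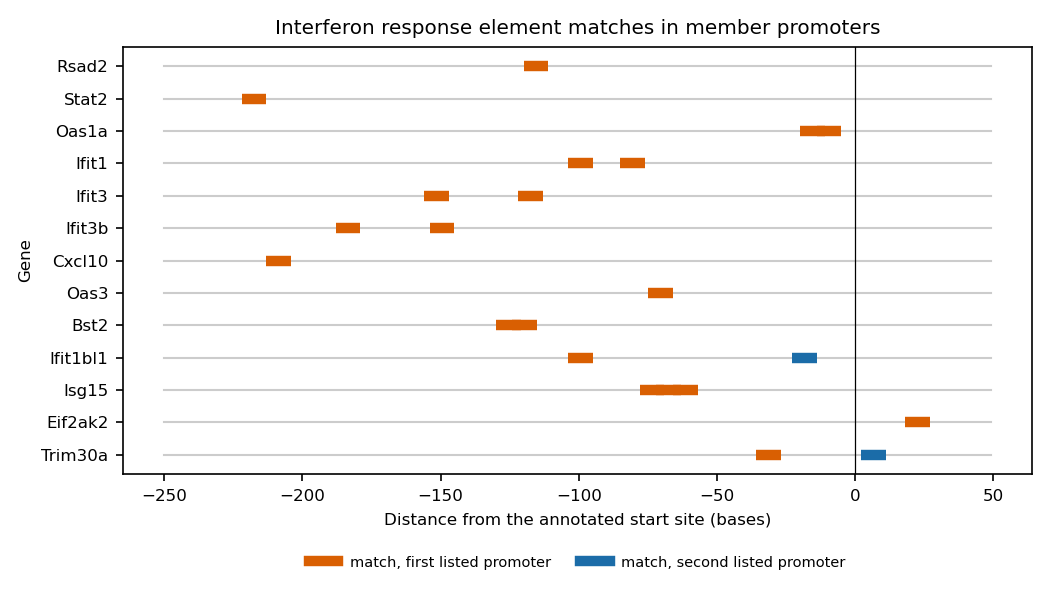
Positions of GAAANNGAAA or its reverse complement in the promoters of the 13 antiviral genes that held it, in bases from the annotated start site (x axis); each grey line is a promoter of 300 bases and each bar a match, blue where it belongs to the gene's second listed promoter. Isg15 holds 3 overlapping matches and Eif2ak2 a match after its start site.

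The libraries held from 4113713 to 5945518 counts. Nr4a1 itself ranged from 5.87 to 18.02 CPM (counts divided by library size, scaled by TMM) over the 18 libraries and was called in no comparison of KO with WT, so its transcript does not mark the labelled genotype; a guide that makes small insertions or deletions need not lower it. The 8 CD8 T cell markers summed to 3699 to 4931 CPM. B cell markers summed to 4.75 to 12.2 CPM and the 3 NK cell markers in the table to at most 3.12 CPM. Dendritic cell markers summed to 38.5 to 80.8 CPM and myeloid markers to 178 to 296 CPM. CD4 T cell markers summed to 12.6 to 19.9 CPM in control and LCA10 libraries and 18.6 to 36.2 CPM in LCA50 libraries. In KO against WT, 9, 8 and 6 of the 9 tested myeloid markers were lower at 0, 10 and 50 µM LCA. Of these 2, 1 and 1 were called, where 0.627%, 0.661% and 1.94% of all tested genes were called in either direction. The part of these differences in the results was not tested. Libraries also differed in a low background of reads on 1470 olfactory, vomeronasal and trace amine receptor genes, which came to 50.4 to 113 CPM in the control libraries, 64.8 to 89.6 CPM in the LCA10 libraries and 47.2 to 223 CPM in the LCA50 libraries. Red cell and platelet markers summed to 5.14 to 21.5 CPM in KO LCA10 and 0.38 to 6.09 CPM in KO control, and to 3.52 to 13.3 CPM in WT LCA10 and 30.97 to 55.3 CPM in WT control, so the order of LCA10 and control differed between KO and WT; their part in the results was not tested.

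The antiviral genes were higher with 10 µM LCA in both KO and WT cells. Their summed level was 3681, 3874 and 3325 CPM in the KO LCA10 libraries, against 2778, 2896 and 2697 CPM in KO control. In WT LCA10 it was 3192, 4565 and 3519 CPM, against 2854, 2939 and 2843 CPM in WT control. No LCA10 library came down to the level of a control library, and the highest sum of all was WT LCA10 replicate 2. These are bulk samples, in which more cells making a transcript and more transcript in each cell cannot be told apart.

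Gene by gene, 6 of the 37 rose in KO LCA10 against KO control and 6 in WT LCA10 against WT control, with none lower in either, at an adjusted p under 0.05 in edgeR's quasi-likelihood test across all genes. Higher calls made up 0.206% of all tested genes in KO (24 genes) and 0.215% in WT (25 genes), and lower calls 0.12% and 0.172%. Rtp4, Xaf1, Isg15 and Oasl1 rose in both KO and WT, which share no library; 14 genes of all tested (0.12%) did so. Herc6 and Trim30a were added in KO, and Mx2 and Cxcl10 in WT. The median log2 fold change of the 37 was 0.51 in KO and 0.49 in WT, while that of all tested genes was 0.00 in each. Fold changes were above 0 for 35 genes in both KO and WT, against 29.8% of all tested genes.

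**Figure D2:**
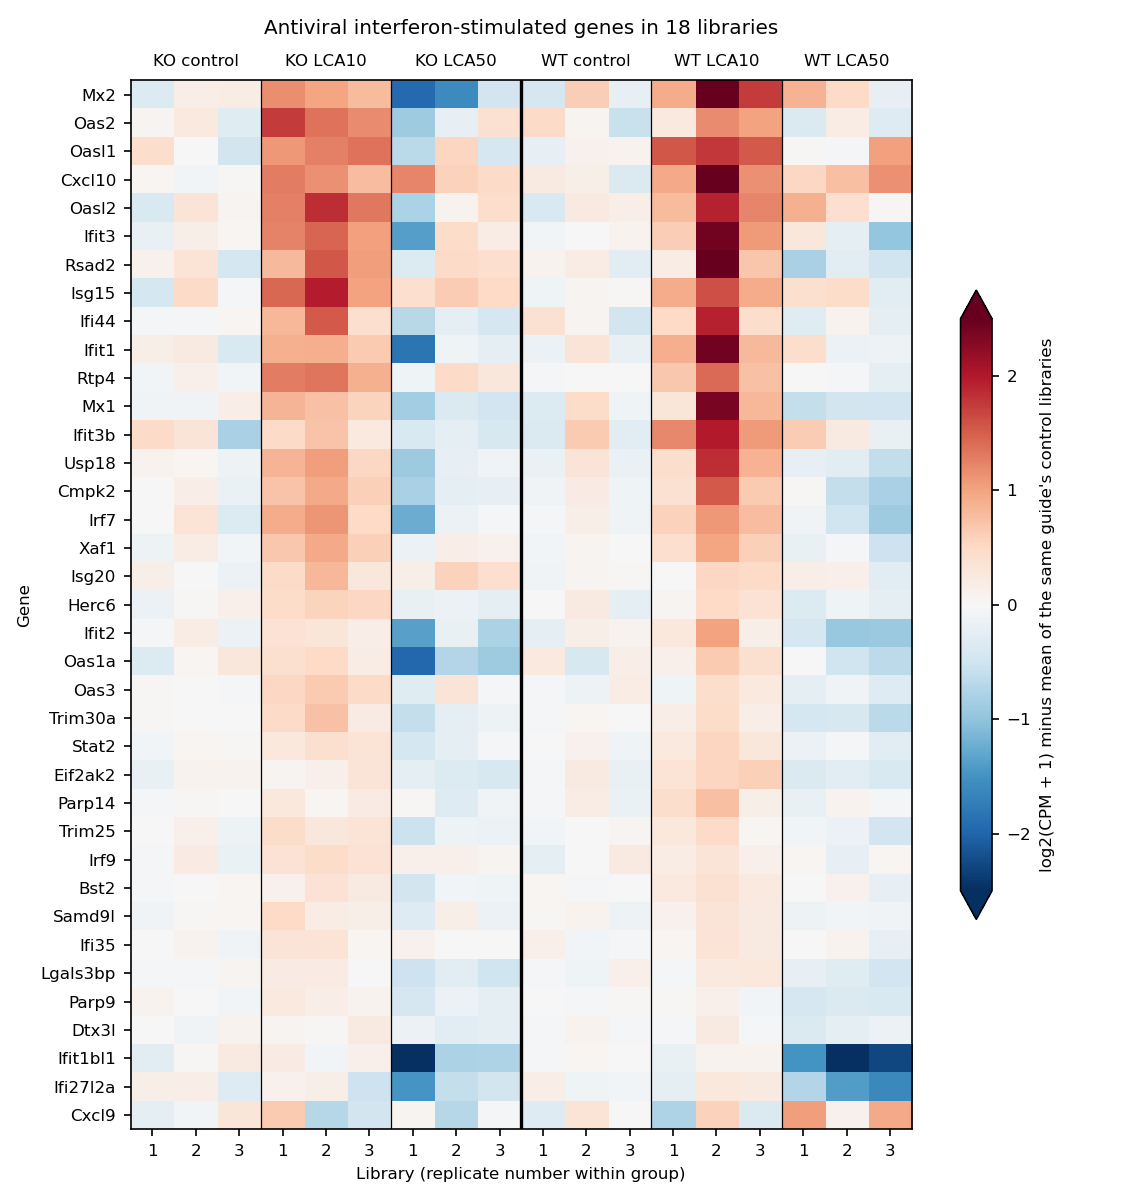
Each row is an antiviral gene and each column a library; colour gives log2(CPM + 1) minus the mean of the same guide's 3 control libraries, with values beyond 2.5 drawn in the end colours. The LCA10 columns are red for nearly all genes, deepest in WT LCA10 replicate 2, and KO LCA50 replicate 1 holds the deepest blue values of the KO libraries.

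Library by library, the LCA10 increase differed in size. The median over the 37 genes of log2(CPM + 1) minus the control mean was 0.495, 0.723 and 0.366 in KO LCA10 replicates 1 to 3 and 0.266, 0.752 and 0.444 in WT LCA10 replicates 1 to 3. In KO LCA10, 33, 33 and 29 of the 37 genes exceeded the highest KO control library, and in WT LCA10 the counts were 24, 37 and 30 against the highest WT control library. Of all tested genes 28%, 29.1% and 29.5% did so in the same KO LCA10 libraries and 26%, 26.2% and 24.7% in the WT LCA10 libraries. WT LCA10 replicate 2 was the highest library of its group for 34 genes and the highest of all 18 for 20 genes. KO LCA10 replicate 2 was the highest of its group for 23 genes and of all 18 for 10. These counts were not made over all tested genes. In log2(CPM + 1), WT LCA10 replicate 2 deviated from its group mean by 0.446 on average over the 37 genes. Over all tested genes its mean deviation was -6.43e-05. For KO LCA10 replicate 2 these means were 0.108 and 0.00518. All 3 KO LCA10 libraries lay above all 3 KO control libraries for 27 genes, where 7.75% of all tested genes did so, and for 20 genes in WT, where 6.81% did so.

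The calls in WT depended on WT LCA10 replicate 2. Without it no antiviral gene was called in WT LCA10 against WT control, where edgeR then called 4 genes of 11979 tested. Of the 37 fold changes, 33 stayed above 0, and the median of the 37 was 0.29. An unadjusted p under 0.05 was found for 18, and the share of all tested genes with such a p is not given here. Oasl1 then had a log2 fold change of 1.69 and Rtp4 of 0.71, each with an edgeR adjusted p of 0.0533. The KO count also leaned on single libraries, reaching 1 (Rtp4) without KO control replicate 3 and 2 without KO LCA10 replicate 2, and 3 without KO control replicate 2, KO LCA10 replicate 1 or WT control replicate 1; it was 11 without WT LCA10 replicate 2 or KO LCA50 replicate 1. In WT it was 2 without WT control replicate 1 or 3, and 11 without KO LCA50 replicate 1. Of the 12 calls in KO and WT together, that of Rtp4 in KO was the single one that passed under each alternative.

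Rtp4, a chaperone that carries membrane receptors to the cell surface and is itself interferon-induced (chr16:23520291-23614222), gave the smallest p of the set. It measured 80.2, 82.9 and 60.7 CPM in KO LCA10, against 30.6, 35.5 and 30.9 CPM in KO control. In WT LCA10 it measured 76.0, 127 and 78.9 CPM, against 46.3, 47.7 and 47.3 CPM in WT control. The groups did not overlap in either KO or WT. The log2 fold change was 1.204 ± 0.17 (SE) in KO (edgeR adjusted p = 0.00025) and 1.00 ± 0.16 in WT (edgeR adjusted p = 0.00157). A fraction of its transcript, 13.6% of all runs of 50 bases, is also found in the predicted gene Gm45338, so some of its reads could have been assigned there.

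Isg15 encodes a ubiquitin-like protein that is attached to host and viral proteins (chr4:156199424-156200818). Its level was 44.7, 64.6 and 32.9 CPM in KO LCA10, against 11.5, 22.4 and 15.6 CPM in KO control. It was 34.8, 56.5 and 34.8 CPM in WT LCA10, against 16.5, 18.8 and 18.2 CPM in WT control. Every LCA10 library was above every control library. The log2 fold change was 1.52 ± 0.25 in KO (edgeR adjusted p = 0.00521) and 1.23 ± 0.25 in WT (edgeR adjusted p = 0.0255). The KO call was lost without KO control replicate 3 (edgeR adjusted p = 0.0701), and the WT call without WT LCA10 replicate 2, KO control replicate 3 or any WT control replicate (edgeR adjusted p from 0.0508 to 0.189). Among the genes that act on ISG15, Herc6, the mouse ligase that attaches it, measured 96.1, 103 and 101 CPM in KO LCA10, against 63.0, 70.7 and 76.1 CPM in KO control. It rose there by 0.51 ± 0.12 on the log2 scale (edgeR adjusted p = 0.0339), a call lost without WT control replicate 1 or any one of the KO control and KO LCA10 libraries (edgeR adjusted p from 0.0509 to 0.231), whereas in WT the difference was 0.31 ± 0.12 (edgeR adjusted p = 0.426). A share of 23.8% of the Herc6 transcript is also found in the predicted gene Gm45193. Usp18, which removes ISG15 and blocks the receptor, averaged 143 ± 26.3 CPM in KO LCA10 and 81.0 ± 6.22 CPM in KO control (SD, n = 3), and 147 ± 77.4 CPM in WT LCA10 and 65.5 ± 13.5 CPM in WT control, and was not called in either.

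Oasl1 (chr5:114923240-114937915), known in mice for blocking translation of the Irf7 transcript, reached similar levels in all LCA10 libraries. It measured 15.2, 17.5 and 18.7 CPM in KO LCA10, against 9.48, 6.79 and 4.56 CPM in KO control. WT LCA10 gave 18.6, 21.6 and 18.2 CPM, against 4.75, 6.19 and 6.07 CPM in WT control. Here WT LCA10 replicate 2 was close to its partners. The log2 fold change was 1.32 ± 0.30 in KO (edgeR adjusted p = 0.0387) and 1.77 ± 0.31 in WT (edgeR adjusted p = 0.00236). The KO call was lost with the replicate block (edgeR adjusted p = 0.0544) and without any one of 8 libraries (edgeR adjusted p from 0.0517 to 0.371, the highest without KO control replicate 3). Its neighbour Oasl2 had log2 fold changes of 1.53 ± 0.33 in KO and 1.41 ± 0.34 in WT without passing the test (edgeR adjusted p = 0.0653 and 0.108).

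Xaf1 (chr11:72301629-72313733) encodes a factor that binds the apoptosis inhibitor XIAP. Its level was 94.5, 114 and 88.9 CPM in KO LCA10, against 54.1, 66.9 and 56.3 CPM in KO control. It was 84.1, 126 and 95.1 CPM in WT LCA10, against 60.1, 65.5 and 62.9 CPM in WT control. The groups were separate in both, with a log2 fold change of 0.75 ± 0.13 in KO (edgeR adjusted p = 0.00467) and 0.69 ± 0.13 in WT (edgeR adjusted p = 0.0075). The KO call was lost without KO control replicate 3 or KO LCA10 replicate 2 (edgeR adjusted p = 0.061 and 0.121), and the WT call without WT control replicate 1 or 3 or WT LCA10 replicate 2 (edgeR adjusted p from 0.0591 to 0.21).

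**Figure D3:**
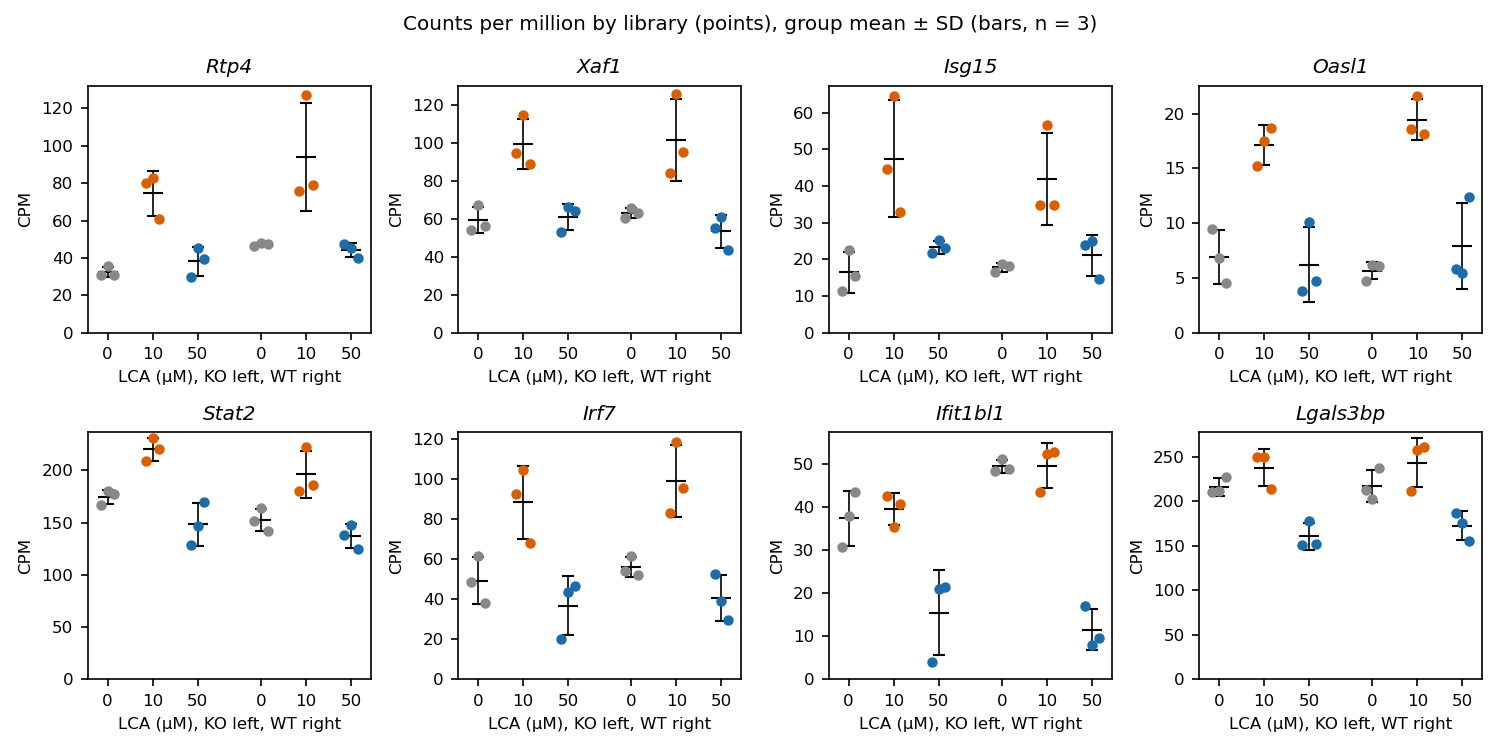
CPM in every library (points) and group mean with SD (bars, n = 3) for 8 antiviral genes at 0, 10 and 50 µM LCA, KO on the left and WT on the right of each panel. Rtp4, Xaf1, Isg15 and Oasl1 peak at 10 µM in both, and Ifit1bl1 and Lgals3bp are lowest at 50 µM in both.

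Mx2 and Cxcl10 rose in WT. Mx2 encodes a dynamin-like GTPase that restricts viruses, is annotated as a polymorphic pseudogene and shares 6.71% of its transcript with Mx1. Cxcl10 is a chemokine that draws CXCR3-bearing T cells and answers to interferon gamma as well. In KO, Mx2 measured 13.6, 12.03 and 10.4 CPM with LCA10, against 4.15, 6.41 and 6.42 CPM in control, and Cxcl10 measured 28.2, 25.5 and 19.5 CPM with LCA10, against 11.5, 10.4 and 11.2 CPM in control. Both were separate between those groups but not called (edgeR adjusted p = 0.439 for Mx2 and 0.285 for Cxcl10). Mx2 measured 5.22, 18.6 and 9.96 CPM in WT LCA10, against 1.45, 3.99 and 1.82 CPM in WT control (log2 fold change 2.20 ± 0.46, edgeR adjusted p = 0.0208), with no overlap. It did not pass without WT LCA10 replicate 2 (1.63, edgeR adjusted p = 0.325), WT control replicate 1 (edgeR adjusted p = 0.164) or WT control replicate 3 (edgeR adjusted p = 0.153). Cxcl10 measured 13.0, 43.0 and 15.04 CPM in WT LCA10, against 7.43, 6.99 and 4.65 CPM in WT control. Its log2 fold change of 1.89 ± 0.38 (edgeR adjusted p = 0.0308) no longer passed with the 2 groups fitted alone (1.88, edgeR adjusted p = 0.279) or without WT LCA10 replicate 2 (1.13, edgeR adjusted p = 0.146), and was lost without any one of 9 libraries in all, that one included (edgeR adjusted p from 0.0536 to 0.196).

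Trim30a, a mouse TRIM protein known for restraining NF-kB signalling, rose in KO and did not pass the test in WT. It measured 187, 223 and 154 CPM in KO LCA10, against 136, 133 and 133 CPM in KO control (log2 fold change 0.49 ± 0.11, edgeR adjusted p = 0.0451). That call was lost without any one of 11 libraries, among them each KO control replicate and KO LCA10 replicates 1 and 2 (edgeR adjusted p from 0.0528 to 0.503, the highest without KO LCA10 replicate 2, where the log2 fold change was 0.34). The WT values were 160, 195 and 159 CPM with LCA10, against 139, 147 and 141 CPM in control (0.27, edgeR adjusted p = 0.542). The groups were separate in both, and neither Trim30a nor any other of the 37 was called for a difference between the KO and WT responses.

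The transcription factors Stat2, Irf9 and Irf7 were called at 10 µM in the average over KO and WT alone. Stat2 measured 209, 231 and 220 CPM in KO LCA10, against 167, 180 and 177 CPM in KO control, and 180, 222 and 186 CPM in WT LCA10, against 152, 164 and 142 CPM in WT control. Irf9 averaged 112 ± 3.78 CPM in KO LCA10 and 85.3 ± 11.5 CPM in KO control (SD, n = 3), and 109 ± 7.98 CPM in WT LCA10 and 94.4 ± 14.5 CPM in WT control. Irf7 measured 92.5, 105 and 68.3 CPM in KO LCA10, against 48.6, 61.5 and 37.9 CPM in KO control, and 83.1, 119 and 95.7 CPM in WT LCA10, against 54.1, 61.5 and 52.0 CPM in WT control. Stat2 and Irf7 were separate between LCA10 and control in both KO and WT. None of the 3 was called within KO or WT. Averaged over KO and WT, a contrast added after seeing the data, all 3 rose at 10 µM, with log2 fold changes of 0.35 ± 0.07 for Stat2 (edgeR adjusted p = 0.00184), 0.30 for Irf9 (edgeR adjusted p = 0.0294) and 0.83 for Irf7 (edgeR adjusted p = 0.0478). The call of Stat2 held without each single library, while that of Irf9 was lost without any one of 8 libraries and that of Irf7 without any one of 12, WT LCA10 replicate 2 among them (edgeR adjusted p = 0.141 for Irf9 and 0.14 for Irf7).

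That averaged contrast called 22 of the 37 genes higher and none lower, where 1.01% of all tested genes were higher and 0.807% lower. Besides the 3 factors, they were Rtp4, Xaf1, Isg15, Oasl1, Mx2, Oasl2, Cxcl10, Oas2, Oas3, Ifi44, Ifit3b, Usp18, Herc6, Trim25, Trim30a, Cmpk2, Isg20, Bst2 and Parp14. Their log2 fold changes ran from 0.26 for Bst2, the tetherin that holds budding virions to the membrane, to 1.64 for Mx2. Cxcl10, Herc6, Isg15, Mx2, Oasl1, Oasl2, Rtp4, Stat2, Trim30a and Xaf1 passed whichever single library was left out. The count was 15 without WT LCA10 replicate 2, where 106 of 11979 tested genes were called in either direction. It was 11 to 14 without KO control replicate 1 or 3, WT control replicate 1 or 3, or KO LCA10 replicate 1 or 2.

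Several of the best-known antiviral genes had large fold changes that did not pass the test, and their values varied between libraries. Ifit1, whose protein binds viral RNA that lacks a host-type cap, measured 67.9, 69.0 and 57.3 CPM in KO LCA10, against 40.3, 42.6 and 27.4 CPM in KO control, without overlap. In WT LCA10 it measured 57.4, 165 and 53.5 CPM, against 27.3, 37.7 and 26.5 CPM in WT control. For Ifit1, as for Rsad2 and Mx1, the second WT LCA10 library was far above its partners. Rsad2 (viperin), which makes a nucleotide that ends viral RNA chains, measured 14.5, 24.9 and 17.4 CPM in KO LCA10, against 8.49, 10.2 and 5.58 CPM in KO control, and 10.4, 62.4 and 15.2 CPM in WT LCA10, against 9.71, 10.4 and 7.28 CPM in WT control. Mx1 measured 40.9, 37.6 and 33.3 CPM in KO LCA10, against 20.9, 20.9 and 24.8 CPM in KO control, and 20.5, 89.2 and 30.3 CPM in WT LCA10, against 12.8, 22.96 and 15.2 CPM in WT control. Averaged over KO and WT, Ifit1 had a log2 fold change of 1.204 (edgeR adjusted p = 0.0984), Ifit3 of 1.47 (edgeR adjusted p = 0.0553), Rsad2 of 1.46 (edgeR adjusted p = 0.101) and Mx1 of 1.09 (edgeR adjusted p = 0.102). Leaving out WT LCA10 replicate 2 made these changes smaller, and Ifit3 (1.09, edgeR adjusted p = 0.0252), Rsad2 (0.86, edgeR adjusted p = 0.0302) and Mx1 (0.66, edgeR adjusted p = 0.0164) then passed, while Ifit1 did not (0.84, edgeR adjusted p = 0.154). Ifit3 and Ifit3b share 51.2% and 45% of their transcripts with another gene, in the main each other, so the split of reads between them is uncertain.

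**Figure D4:**
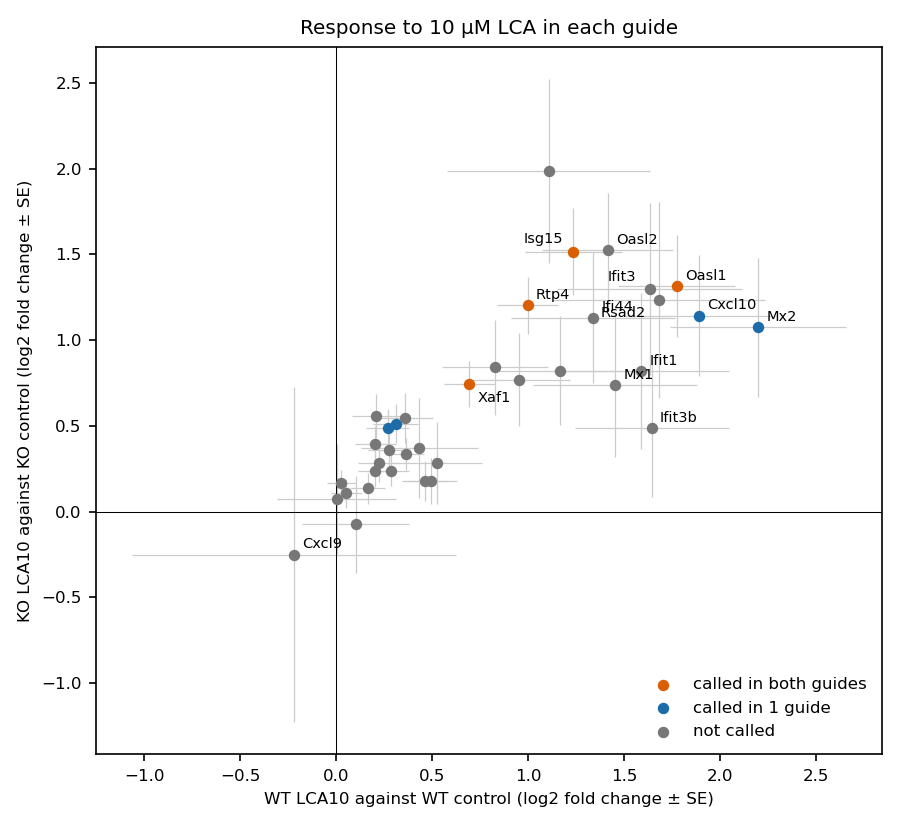
Log2 fold change with 10 µM LCA (with SE) in WT cells (x axis) and KO cells (y axis) for the 37 antiviral genes, from libraries that are not shared between the axes. The points of 35 genes lie above 0 on both axes; Rtp4, Xaf1, Isg15 and Oasl1 were called on both, Mx2 and Cxcl10 in WT, and Herc6 and Trim30a, the overlapping blue points near 0.5 on the y axis, in KO.

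At 50 µM LCA the set did not stand above control. The summed level was 2077, 2558 and 2490 CPM in KO LCA50, against 2778, 2896 and 2697 CPM in KO control, and 2455, 2380 and 2126 CPM in WT LCA50, against 2854, 2939 and 2843 CPM in WT control. In both KO and WT every LCA50 sum was below every control sum, although abundant genes weigh most in such a sum. Of the 37 fold changes, 28 were below 0 and 9 above in each. Among all tested genes 50.8% were above 0 in KO and 51% in WT. The median log2 fold change of the 37 genes was -0.23 in each. No gene rose, 4 fell in KO and 5 in WT, in a comparison that moved many genes: of all tested genes 2.93% were higher and 3.42% lower in KO, and 3.66% were higher and 4.93% lower in WT. Parp9, Lgals3bp and Ifit1bl1 fell in both KO and WT, as did 2.18% of all tested genes, although the KO calls of Parp9 and Ifit1bl1 depended on single libraries.

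Parp9, which works in a complex with the ubiquitin ligase encoded by its neighbour Dtx3l, measured 172, 207 and 197 CPM in KO LCA50, against 244, 229 and 220 CPM in KO control. In WT LCA50 it measured 175, 181 and 180 CPM, against 235, 229 and 237 CPM in WT control. The decreases were small, and the WT LCA50 libraries lay closer together than the KO LCA50 libraries, of which replicate 1 was the lowest. The log2 fold change was -0.27 ± 0.08 in KO (edgeR adjusted p = 0.0306) and -0.39 ± 0.08 in WT (edgeR adjusted p = 0.00102). The KO call was lost without KO control replicate 1 or 2 or KO LCA50 replicate 1 (edgeR adjusted p from 0.0799 to 0.2) and with the 2 groups fitted alone (edgeR adjusted p = 0.106). Dtx3l itself measured 217, 195 and 201 CPM in KO LCA50, against 240, 223 and 252 CPM in KO control, and 190, 210 and 222 CPM in WT LCA50, against 237, 263 and 237 CPM in WT control, and was not called in either (edgeR adjusted p = 0.0588 in WT).

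Lgals3bp, a secreted glycoprotein that binds galectins, measured 151, 178 and 153 CPM in KO LCA50, against 210, 211 and 228 CPM in KO control. It measured 187, 176 and 155 CPM in WT LCA50, against 213, 202 and 237 CPM in WT control. The log2 fold change was -0.43 ± 0.09 in KO (edgeR adjusted p = 0.00277) and -0.33 ± 0.09 in WT (edgeR adjusted p = 0.0186), with no overlap in either; the WT call was lost without WT control replicate 3 or WT LCA50 replicate 2 or 3 (edgeR adjusted p from 0.0524 to 0.136). Ifit1bl1, an Ifit-like gene inside the Ifit cluster, stood at 4.05, 20.995 and 21.4 CPM in KO LCA50, against 30.8, 38.1 and 43.6 CPM in KO control. In WT LCA50 it stood at 16.95, 8.03 and 9.48 CPM, against 48.5, 51.3 and 48.95 CPM in WT control. The groups were far apart in WT, with a log2 fold change of -2.11 ± 0.37 (edgeR adjusted p = 0.00213), and closer in KO, with -1.24 ± 0.35 (edgeR adjusted p = 0.04999). The KO call lay at the threshold: it was lost with no filter (edgeR adjusted p = 0.105), with the 2 groups fitted alone (edgeR adjusted p = 0.295), with the replicate block (edgeR adjusted p = 0.0692) and without any one of 14 libraries (edgeR adjusted p from 0.0527 to 0.177).

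The other falls at 50 µM were called in KO or WT alone. Oas1a, one of the enzymes whose oligoadenylates activate RNase L, measured 1.43, 4.75 and 4.12 CPM in KO LCA50, against 6.52, 8.86 and 10.6 CPM in KO control (log2 fold change -1.31 ± 0.33, edgeR adjusted p = 0.0134). The call was lost with the 2 groups fitted alone (edgeR adjusted p = 0.0736) and without KO control replicate 3 or KO LCA50 replicate 1 (edgeR adjusted p = 0.0985 and 0.107). Its value is uncertain because 57.6% of its transcript is also in Oas1g. Ifi27l2a, a small interferon-induced mitochondrial protein, measured 88.4, 164 and 179 CPM in KO LCA50, against 275, 279 and 197 CPM in KO control (edgeR adjusted p = 0.148), and 195, 123 and 106 CPM in WT LCA50, against 366, 301 and 312 CPM in WT control (log2 fold change -1.204 ± 0.29, edgeR adjusted p = 0.0232), a call lost without WT control replicate 1 or 3 or WT LCA50 replicate 2 or 3 (edgeR adjusted p from 0.0546 to 0.102). Trim30a measured 88.7, 113 and 122 CPM in KO LCA50, against 136, 133 and 133 CPM in KO control (edgeR adjusted p = 0.106), and 105, 107 and 88.7 CPM in WT LCA50, against 139, 147 and 141 CPM in WT control (log2 fold change -0.50 ± 0.12, edgeR adjusted p = 0.00477).

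Averaged over KO and WT, 11 of the 37 genes fell and 1 rose at 50 µM, where 8.66% of all tested genes fell and 7.86% rose. The 11 were Parp9, Lgals3bp, Ifit1bl1, Trim30a, Dtx3l, Ifi27l2a, Ifit2, Oas1a, Eif2ak2, Stat2 and Trim25. The calls of Stat2 and Trim25 were lost without any one of 8 and of 6 libraries, and the other 9 passed whichever single library was left out.

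Cxcl10, the single gene that rose, went the other way from most of the set at 50 µM. It measured 26.9, 16.8 and 15.7 CPM in KO LCA50 and 9.44, 11.2 and 14.9 CPM in WT LCA50, in each case above every control library of the same guide. It was the single gene of the 37 with that pattern, in KO and in WT alike, where 11.5% and 13.1% of all tested genes showed it. It was not called within KO or WT, and rose in the averaged contrast by 0.87 ± 0.27 on the log2 scale (edgeR adjusted p = 0.0348), although not when any of 9 single libraries was left out (edgeR adjusted p from 0.0569 to 0.0941) or with the receptor background as a covariate (0.65, edgeR adjusted p = 0.184). Below every control library were 15 genes in KO and 11 in WT, against 11.9% and 13.7% of all tested genes.

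The receptor background was higher in WT LCA50, at 121, 139 and 223 CPM, than in WT control, at 50.4 to 108 CPM. With it as a covariate the number called lower in WT LCA50 was 2 (Ifit1bl1 and Dtx3l) in place of 5. Leaving out single libraries gave 3 (WT control replicate 3, or WT LCA50 replicate 2 or 3) to 8 (WT LCA10 replicate 2) in WT, and 2 (any KO control replicate) to 7 (KO LCA50 replicate 3) in KO.

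**Figure D5:**
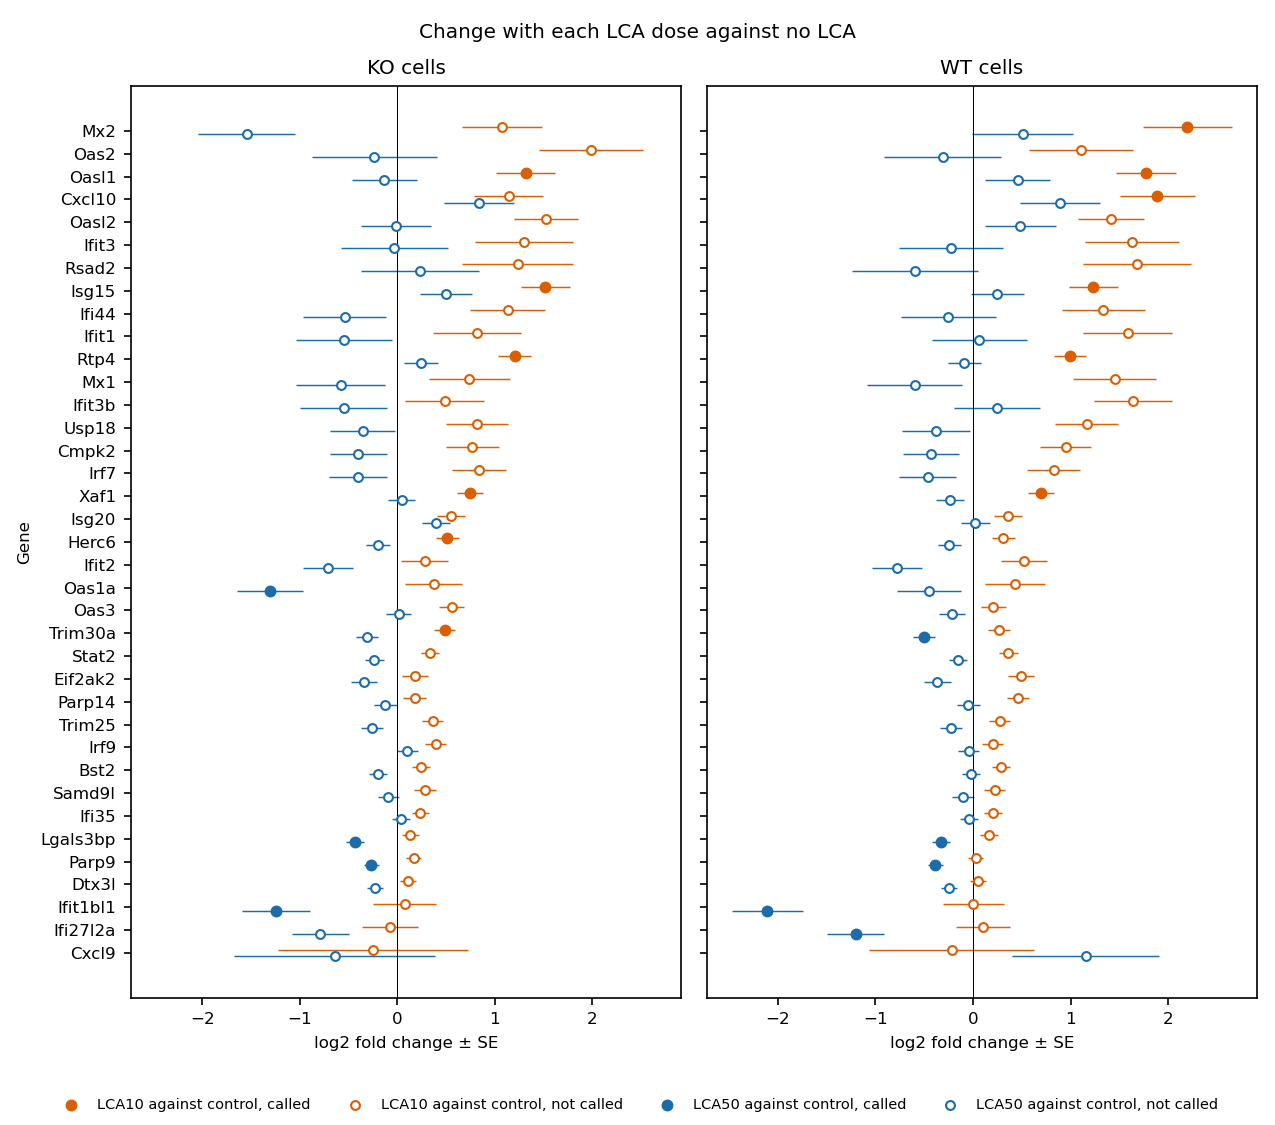
Log2 fold change (with SE) against the same guide's control at 10 µM (orange) and 50 µM LCA (blue) for the 37 antiviral genes in KO (left) and WT (right); filled points passed an adjusted p of 0.05 in edgeR. Both doses are set against the same control libraries; the orange points lie almost all right of 0, and the filled blue points left of it.

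Set directly against each other, the doses differed more than either differed from control. In LCA50 against LCA10, which shares libraries with the comparisons above, 19 genes fell in KO and 22 in WT and none rose, where 0.918% and 1.47% of all tested genes were called lower and 0.463% and 0.798% higher. The median log2 fold change was -0.80 in KO and -0.93 in WT. For 31 genes in KO and 31 in WT every LCA50 library was below every LCA10 library, against 7.34% and 11.2% of all tested genes. Group means were highest at 10 µM in both KO and WT for 35 of the 37 genes, against 8.55% of all tested genes, the exceptions being Cxcl9 and Ifi27l2a. Means were lowest at 50 µM in both for 22 genes, against 20.5%, a share among the 37 that includes the genes called lower above.

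Stat2 took part in this difference, with 128, 147 and 170 CPM in KO LCA50 and 138, 148 and 125 CPM in WT LCA50. It fell against LCA10 by 0.57 ± 0.09 on the log2 scale in KO (edgeR adjusted p = 0.00112) and by 0.52 ± 0.09 in WT (edgeR adjusted p = 0.00143). Eif2ak2 encodes PKR, the RNA-activated kinase that stops translation. It measured 34.8, 32.3 and 30.8 CPM in KO LCA50 and 43.4, 45.2 and 51.5 CPM in KO LCA10, and 28.1, 29.5 and 27.5 CPM in WT LCA50 and 46.0, 53.1 and 55.7 CPM in WT LCA10. It fell by 0.86 ± 0.14 in WT (edgeR adjusted p = 0.000375) and was also called lower in KO, though not without any one of 12 libraries. Irf7, at 20.02, 43.8 and 46.5 CPM in KO LCA50 and 52.6, 39.0 and 29.8 CPM in WT LCA50, fell in WT by 1.29 on the log2 scale (edgeR adjusted p = 0.031), a call lost without any one of 4 libraries, and had an edgeR adjusted p of 0.0523 in KO. Rtp4, Xaf1, Isg15 and Oasl1 all fell in both KO and WT: Xaf1 fell by 0.70 in KO, the smallest of these changes, and Oasl1 fell by 1.45 in KO, the largest. The calls of Xaf1 passed under each alternative, whereas that of Isg15 was lost without any one of 9 libraries in KO and of 10 in WT. The number called in WT was 12 without WT LCA10 replicate 2, 9 without WT LCA50 replicate 3, 10 without WT LCA50 replicate 2, and 4 with the receptor background as a covariate; in KO it was 12 without KO LCA10 replicate 1 or 2 and 12 with the 2 groups fitted alone.

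None of the 37 genes was called between KO and WT cells at any dose in the main fit. Every KO library lay above every WT library for 4 of the 37 genes at 0 µM, 2 at 10 µM and 3 at 50 µM. Every KO library lay below every WT library for 5, 3 and 1 genes at these doses. The share of all tested genes separated in this way is not given here. At 0, 10 and 50 µM LCA no gene was called in KO against WT, where 0.627%, 0.661% and 1.94% of all tested genes were called in either direction, and 3, 4 and 1 of the 37 had an unadjusted p under 0.05. DESeq2 called 0 of the 37 at each dose, and edgeR called 1, Ifit1bl1, higher in KO at 50 µM when KO LCA50 replicate 1 was left out. At 0 µM the smallest p-values were those of Rtp4, Mx2 (1.22 ± 0.48, edgeR adjusted p = 0.387) and Stat2 (0.20 ± 0.09, edgeR adjusted p = 0.551). Rtp4 was lower in KO control, with the values given above and a log2 fold change of -0.54 ± 0.17 (edgeR adjusted p = 0.2). It was called lower in KO when no filter was used (-0.55, edgeR adjusted p = 0.0136) or when the control groups were fitted alone (-0.54, edgeR adjusted p = 0.0144). At 10 µM Herc6 (0.29 ± 0.11, edgeR adjusted p = 0.395) and Oas3 (0.31 ± 0.13, edgeR adjusted p = 0.454) were the nearest to a call. Leaving out WT LCA10 replicate 2 gave 8 of the 37 an unadjusted p under 0.05, in place of 4. It left 28 differences above 0, in place of 18. None of the 37 was called in that fit, where 45 of 11979 tested genes were, and Ifi44 came nearest (1.41, edgeR adjusted p = 0.158). The share of all tested genes with an unadjusted p under 0.05 is not given here for any comparison, so such counts are a description. Oas3 measured 210, 232 and 206 CPM in KO LCA10 and 140, 204 and 180 CPM in WT LCA10. At 50 µM the nearest was Cxcl9, whose counts were 3, 0 and 3 in KO LCA50 and 15, 6 and 13 in WT LCA50 (edgeR adjusted p = 0.169).

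The difference between the KO and WT responses to LCA was tested directly. No gene of the 37, and 0 of all 11651, was called for it at 10 or at 50 µM in edgeR; unadjusted p-values under 0.05 were found for 0 of the 37 at 10 µM and 1 at 50 µM. At 10 µM, leaving out WT LCA10 replicate 2 moved the median difference to 0.17 (-0.03 with it) and the number above 0 to 29 (17 with it); Oas3 and Rtp4 then had an unadjusted p under 0.05 and no gene was called in edgeR. Without KO LCA50 replicate 1, Ifit1bl1 was called for the difference at 50 µM, being higher in KO. At 10 µM the KO response minus the WT response of Rtp4 was 0.21 on the log2 scale (95% interval -0.26 to 0.68), that of Isg15 was 0.28 (-0.46 to 1.03), that of Xaf1 was 0.05 (-0.33 to 0.44) and that of Oasl1 was -0.46 (-1.33 to 0.42). Each interval spans 0, and a missed threshold does not show that KO and WT respond alike. The smallest p at 10 µM was that of Ifit3b, at -1.15 ± 0.57 (edgeR adjusted p = 1), whose counts were 25, 32 and 24 in KO LCA10 and 42, 72 and 37 in WT LCA10. At 50 µM it was that of Mx2, at -2.06 ± 0.72 (edgeR adjusted p = 0.728; 95% interval -3.54 to -0.58), with 0.72, 1.19 and 3.73 CPM in KO LCA50 and 4.94, 3.62 and 1.81 CPM in WT LCA50.

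Of the members not yet given by library, Oas2 and Ifi44 were rare, at 0.24 to 6.70 and 1.62 to 15.8 CPM over the 18 libraries. Isg20, an RNA exonuclease, ranged from 57.4 to 115 CPM and Cmpk2 from 17.6 to 110 CPM, and both rose in the averaged contrast at 10 µM, as did Oas2 and Ifi44. Trim25, a ubiquitin ligase that acts on the RNA sensor RIG-I, ranged from 80.8 to 175 CPM, Parp14, a mono-ADP-ribosyltransferase, from 101 to 194 CPM and Bst2 from 121 to 214 CPM. Samd9l, which restricts poxviruses, ranged from 62.4 to 110 CPM, and Ifi35 from 142 to 206 CPM. Ifit2 ranged from 14.3 to 87.8 CPM, Ifit3 from 4.29 to 91.6 CPM and Oasl2 from 8.1 to 55.3 CPM. For Mx1, Ifit3, Cmpk2, Ifit2, Trim25, Parp14 and Ifi35 the highest of the 18 was WT LCA10 replicate 2, and for Isg20, Oasl2, Ifi44 and Bst2 it was KO LCA10 replicate 2.

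Upstream of these genes, transcripts of the interferons were close to undetectable. The 17 type I interferon genes in the table together held 1 to 10 counts per library, and Ifnb1 held at most 5 counts in any library. Ifna7, Ifna9, Ifna11 and Ifna16 were at 0 in all 18 libraries. WT LCA10 replicate 2, the library with the highest antiviral sum, held 1 such count. Ifng, the type II interferon, was detected, at 5.14, 5.91 and 7.38 CPM in KO LCA10, against 0, 3.4 and 0.85 CPM in KO control, and 6.38, 19.4 and 5.47 CPM in WT LCA10, against 3.92, 2.40 and 3.24 CPM in WT control. It was not called at 10 µM (edgeR adjusted p = 0.468 in KO and 0.531 in WT). At 50 µM it measured 20.97, 8.72 and 5.5 CPM in KO and 11.6, 15.3 and 14.5 CPM in WT. It rose in KO by 3.01 ± 0.74 on the log2 scale (edgeR adjusted p = 0.0246). In WT the log2 fold change of Ifng was 2.11 and was not called. Averaged over KO and WT, Ifng rose by 2.56 ± 0.49 (edgeR adjusted p = 0.00205), and the difference between the KO and WT responses was not called.

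Of 20 receptor and signalling genes, 19 were tested and none was called at 10 µM within KO or WT. Averaged over KO and WT, 2 of the 19 fell at 10 µM and none rose, where 0.807% of all tested genes fell and 1.01% rose. The 2 were Ifngr1, a chain of the interferon gamma receptor (-0.32 ± 0.07, edgeR adjusted p = 0.00905), and Irf5 (-0.49 ± 0.12, edgeR adjusted p = 0.0232). Ifnar1 was at 169 to 209 CPM over all libraries. Ifnar2 was lower in KO than in WT, at 117, 132 and 132 CPM in KO LCA10 and 163, 158 and 158 CPM in WT LCA10 (log2 fold change -0.33 ± 0.08, edgeR adjusted p = 0.0346), and likewise at 50 µM (-0.32 ± 0.08, edgeR adjusted p = 0.0228). Without LCA it was not called. Its counts were then 638, 644 and 773 of 5073981, 5328029 and 5945518 in KO control. In WT control they were 742, 778 and 761 of 4880100, 5012088 and 4999257. Relative to library size, every KO control library was below every WT control library. At 50 µM, 2 of the 19 rose and 4 fell in KO, and 1 rose and 4 fell in WT, where 2.93% of all tested genes were higher and 3.42% lower in KO and 3.66% higher and 4.93% lower in WT. Socs1, an inhibitor of JAK kinases, rose in both, while Ifngr1 and Irf1 fell in both. Irf1 fell by 0.38 ± 0.07 in KO (edgeR adjusted p = 0.00043) and by 0.43 ± 0.07 in WT (edgeR adjusted p = 5.4e-05).

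A wider list of 68 other interferon-induced antiviral genes, of which 61 were tested, had smaller differences at 10 µM. There 4 rose in KO and 4 in WT, where 0.206% and 0.215% of all tested genes did, none fell, and the median log2 fold change was 0.23 in KO and 0.20 in WT. Mov10, an RNA helicase that restricts retroelements, rose in both, with 175, 230 and 222 CPM in KO LCA10, against 134, 126 and 132 CPM in KO control, and 206, 217 and 193 CPM in WT LCA10, against 133, 141 and 147 CPM in WT control. Parp12, an antiviral ADP-ribosyltransferase, and Ifi204, a DNA-binding protein of the Ifi200 family, also rose in both. Mov10 also rose at 50 µM, by 0.88 ± 0.09 in KO (edgeR adjusted p = 9.81e-08) and by 0.88 ± 0.09 in WT (edgeR adjusted p = 4.48e-08). Of the same 61 genes, 4 rose at 50 µM in KO and 2 in WT, where 2.93% and 3.66% of all tested genes did. Among them were Mov10 and Ifi27 in both and Ifi204 in KO. Falls were called for 8 of the 61 in KO and 15 in WT, where 3.42% and 4.93% of all tested genes fell. Among these were Ifi203 and Phf11b in both. The median log2 fold change of the list at 50 µM was -0.14 in KO and -0.23 in WT.

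Levels between genes can be compared per kilobase of annotated exon (GENCODE vM21, GRCm38). Ifi27l2a was the highest, at 522 CPM per kilobase averaged over all libraries, followed by Bst2 at 186.5, Ifi35 at 99.1 and Lgals3bp at 73.1. Several genes with large fold changes at 10 µM were low, with Mx2 at 1.69, Oasl1 at 4.04, Oas2 at 0.55 and Ifi44 at 0.83 CPM per kilobase. Cxcl9 was the lowest, at 0.34, with 0 to 15 counts per library. Ifi35 and Bst2, and Samd9l at 15.7 CPM per kilobase, had log2 fold changes of 0.20 to 0.29 at 10 µM in KO and WT. They were not called within either. Large changes were not limited to low genes: Rtp4, at 25.8, and Isg15, at 37.1 CPM per kilobase, stood above Samd9l. Both were called at 10 µM in KO and WT.

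The 37 genes lie on 13 chromosomes, and 19 of them in 7 groups of neighbours. The Ifit genes fill 99.3 kb (chr19:34550694-34650009), where Ifit1, Ifit2, Ifit3 and Ifit3b lie with Ifit1bl1 between them. Ifit1bl1 had log2 fold changes of 0.07 in KO and 0.00 in WT at 10 µM, while its neighbours had 0.28 to 1.30 in KO and 0.52 to 1.64 in WT (0.20 to 1.27 without WT LCA10 replicate 2). Rsad2 and Cmpk2, a mitochondrial nucleotide kinase, lie within 37.1 kb on chromosome 12, and had log2 fold changes of 1.23 and 0.77 in KO and 1.68 and 0.95 in WT (0.49 and 0.52 without WT LCA10 replicate 2). On chromosome 16, Parp14 lies within 139.7 kb of Parp9 and Dtx3l, and rose in the averaged contrast at 10 µM by 0.32 on the log2 scale, whereas Parp9 and Dtx3l had 0.10 and 0.08.

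Within groups, most pairs among the 37 genes deviated in the same direction from library to library. Over the 666 pairs of genes, the correlation of log2 CPM deviations from the group mean had a median of 0.457 over the 18 libraries, and 590 pairs were above 0. Without the WT LCA10 group the median was 0.342. These pairs share libraries, depth and background, and the values are a description. The same correlation was not taken over other tested genes, so the values do not set the 37 apart from them.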

How the data were processed

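RNA sequencing measured gene expression in 18 libraries, 3 in each of 6 groups set by guide and LCA dose as the titles give them. The deposited table holds raw counts per gene symbol with no normalization; the submitters' processing notes name STAR, HOMER and DESeq2 and the builds GRCm38 and mm10, without versions or roles, and no source used here gives strandedness. RNA came from a Qiagen column kit and an ultra-low input library, per the labels' protocols. Of the 24537 symbols, 2231 had no count. Counting error and the 3 libraries a group limit precision: the median SE of a log2 fold change over the 37 genes was 0.25 in WT LCA10 against WT control.

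In edgeR 4.0.16 (R 4.3.3, limma 3.58.1) genes were filtered with filterByExpr, scaled by TMM and fitted over all 18 libraries with a mean per group, and 13 contrasts were tested by the robust quasi-likelihood F test. P-values were adjusted by Benjamini-Hochberg over the 11651 genes tested, and an adjusted p under 0.05 was called. Each standard error was taken as |log2 fold change| / sqrt(F). CPM are TMM-scaled, and heat map and library medians use log2(CPM + 1). Alternatives were DESeq2 1.42.0, its size factors in edgeR, 2 other filters, a fit limited to the groups compared, a block for replicate number, the receptor background as a covariate and each library left out. The code was tested on simulated data. The genes and lists were chosen with earlier results of these data known. Named in full were the called genes with the smallest p per contrast (up to 6 each way, or the 3 smallest where none was called), the 5 most abundant, and Stat2, Irf9 and Irf7. Coordinates are from GENCODE vM21 (GRCm38) and promoters from RefSeq (GRCm38.p6). No 2 libraries of a group were copies: squared differences scaled by counting error averaged 2.41 to 8.49, where a repeat would give about 1. The highest values, 8.49 and 7.98, were the pairs with KO LCA50 replicate 1, the library with the fewest counts (4113713). All other pairs gave at most 5.00.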

Additional observations from a re-analysis of the deposited data

How the results depend on the processing

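Of 96 calls of antiviral genes over the 13 contrasts, 0 changed sign under any alternative run. Differences that were not called did: leaving out WT LCA10 replicate 2 turned 3 of 37 in WT LCA10 against control, 10 in KO against WT at 10 µM and 12 in the response difference at 10 µM, and the receptor background as a covariate turned 10 in WT LCA50 against control and 13 in the response difference at 50 µM. The count of antiviral genes called stayed within 1.5 times its main value with DESeq2 size factors in edgeR, the filter of mean CPM of at least 5 and the replicate block, in all 13 contrasts. Other settings moved it as follows. In KO LCA10 against control (6) it was 13 with no filter and 21 with the 2 groups fitted alone. In WT LCA10 against control (6) it was 11 with DESeq2, 11 with no filter and 10 with the receptor background as a covariate. In KO LCA50 against control (4) it was 8 with no filter and 1 (Lgals3bp) with the groups alone. In WT LCA50 against control (5) it was 8 with no filter, 9 with the groups alone and 2 with the covariate. In KO against WT control (0) it was 1, Rtp4, with no filter and 1 with the groups alone. In LCA50 against LCA10 it was 12 in KO (19) with the groups alone and 4 in WT (22) with the covariate. Leaving out single libraries gave 1 to 11 in KO LCA10 and 0 to 11 in WT LCA10 against control, 2 to 7 in KO LCA50 and 3 to 8 in WT LCA50 against control, 12 to 24 in KO and 9 to 26 in WT for LCA50 against LCA10, 0 to 0 for KO against WT control and at 10 µM, 0 to 1 at 50 µM, 0 to 0 for the response difference at 10 µM and 0 to 1 at 50 µM, and 11 to 27 and 9 to 14 for the averaged contrasts at 10 and 50 µM. The share of all tested genes called under each of these settings is mostly not given here. Where it is missing, these counts, and those for single settings above, cannot be told from a general change in the number of calls. The cause of these moves was not tested. Whether replicate numbers in the labels pair the libraries is not stated. Over 45 same-numbered pairs, deviations from group means correlated between -0.23 and 0.11 (median 0.00, 1 pair over 0.1). Differently numbered pairs were not compared, so these values cannot decide whether the numbers pair the libraries. With the replicate number as a block the counts were 7 in KO LCA10, 8 in WT LCA10, 4 in KO LCA50 and 6 in WT LCA50 against control, 21 in KO and 23 in WT for LCA50 against LCA10, 0 for KO against WT at each dose and for both response differences, and 25 and 12 for the averaged contrasts. In that fit Oasl1 in KO LCA10 (1.30, edgeR adjusted p = 0.0544) and Ifit1bl1 in KO LCA50 (-1.26, edgeR adjusted p = 0.0692) were no longer called. With 3 libraries a group, small changes of rare genes such as Oas2, Ifi44 and Cxcl9 were not detectable.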
